A study of Mus musculus with 27 samples.

Results

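Infarct tissue from 13 mouse hearts, taken 7 days after myocardial infarction, was ordered by how much heart muscle RNA each library held. These 13 libraries are all that are titled infarct among the 27 of the series. The other 14 come from remote myocardium, the heart wall away from the infarct. The libraries were chosen by title, and their order by measured values: a muscle score, the mean log2 CPM (counts scaled to library size) of 11 genes of heart muscle cells: Myh6, Tnnt2, Tnni3, Actc1, Ryr2, Mb, Ckm, Pln, Ttn, Mybpc3 and Atp2a2. Every other expressed gene was then fitted against the score with diet as a second term, so the score orders the libraries and the other genes are what was tested.

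All mice were male, of strain C57BL/6J, carried the ApoE-/- genotype and ate a western type diet for 4 weeks. The 6 control infarct libraries come from mice that stayed on this diet. The 7 CKD (chronic kidney disease) libraries come from mice whose feed held adenine, which injures the kidney. Its content was 0.3% over 10 days, then 0.15% over another 11 days, with infarction 4 days into the lower dose and tissue collection 7 days after that. Every infarct library is a separate mouse, and a library is a bulk extract of a tissue piece. Fewer cells of a type and less RNA per cell cannot therefore be told apart. All groups share the ApoE-/- genotype, the western type diet and infarction.

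Heart muscle cells contract through sarcomeres, fire through ion channels and calcium release, and live mostly on mitochondrial oxidation of fatty acids. In an infarct they die for lack of oxygen, immune cells clear them, and activated fibroblasts replace them with a collagen scar. Muscle cells survive under the inner and outer surface and at the border, so that a dissected piece can hold scar and living muscle in any proportion.

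Total counts of the 13 libraries ran from 14255456 to 29506790, and 14347 genes passed the filter on low counts, the 11 score genes not included. The muscle markers were present in every infarct library. Apoe, the gene disrupted in every mouse, still drew reads at 11.4 to 38.7 CPM. That does not check the labels, because every library has the same genotype, and its slope did not pass the test (adjusted p = 0.514). The p-values measure only the spread between these mice, 1 infarct library each.

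The score rose in steps from 8.05 to 12.51, a range of 4.46 log2 units or 22.1-fold. Control mouse 9171 was lowest at 8.05, followed by control mouse 9183 at 9.43. The middle of the order was crowded: control mice 9180, 9182, 9184 and 9170 stood at 10.64, 10.70, 10.93 and 11.00, with CKD mouse 9175 among them at 10.86. The other CKD libraries lay above every control, at 11.17 (9174), 11.30 (9178), 11.69 (9177), 11.76 (9176), 12.29 (9172) and 12.51 (9179). The diets therefore overlapped only between 10.86 and 11.00. The mean was 11.66 ± 0.60 (SD, n = 7) in CKD and 10.12 ± 1.16 (SD, n = 6) in control infarcts. These scores are given as a description with no test, because they define the order.

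Scaled together with the remote libraries, the infarct scores ran from 7.82 to 12.39. Remote libraries lay between 12.03 and 12.51, apart from control mouse 9180 at 11.22. The infarct libraries of CKD mice 9179 (12.39) and 9172 (12.10) thus fell inside the range of the remote libraries other than 9180. Those of CKD mice 9176 (11.54) and 9177 (11.53) lay above the remote library of 9180 only. On that scale, Col1a1, which encodes the main fibrillar collagen chain of scar, was at 80.8 CPM in the 9179 infarct library, below every remote library (115 to 3866 CPM). Postn, a matrix protein of activated fibroblasts, was at 19.2 CPM in it. The library titled infarct from mouse 9179, the top of the order, therefore held muscle and scar RNA at the levels of remote tissue. Whether the piece held infarcted tissue was not tested.

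**Figure D1:**
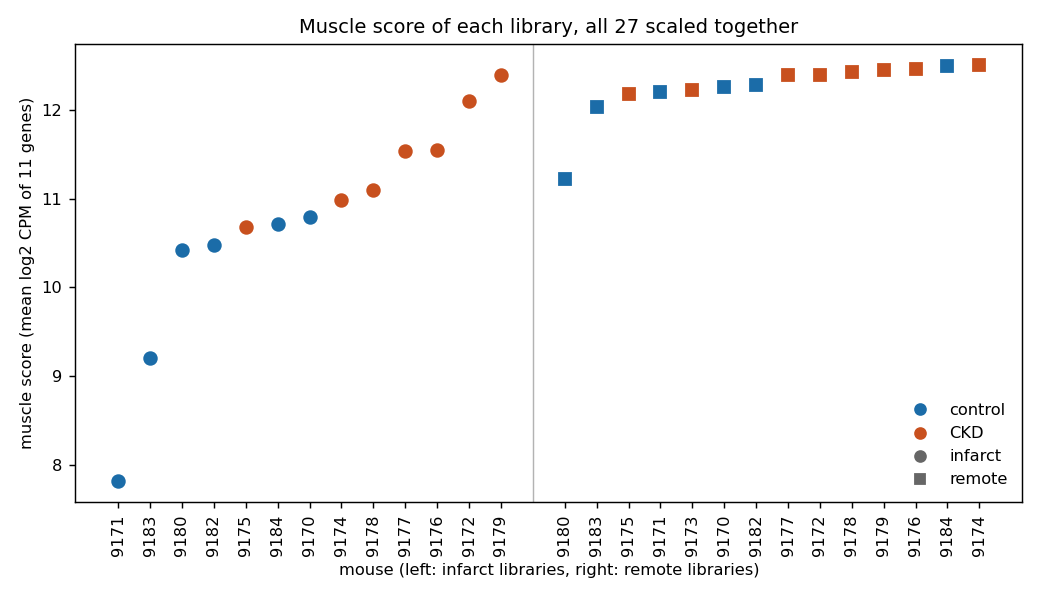
Muscle score (mean log2 CPM of 11 genes, y axis) of each library on the scale of all 27, ordered within infarct (circles, left) and remote tissue (squares, right). Infarct scores run from 7.82 to 12.39 and the 2 highest, CKD mice 9172 and 9179, lie among the remote libraries.

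The 11 score genes moved together, though not by the same amount. Myh6, the alpha myosin heavy chain, ran from 635 CPM in mouse 9171 to 34109 CPM in mouse 9179, with control libraries at 635 to 10931 CPM and CKD libraries at 9997 to 34109 CPM. Tnni3, cardiac troponin I, had the widest range, 7.01 log2 units between 88.9 and 11486 CPM. Mybpc3, which tethers myosin in the sarcomere, had the narrowest at 3.08 log2 units, between 682 and 5782 CPM. Actc1, cardiac alpha actin, followed the other 10 genes least closely (r = 0.86 across the libraries with their mean, against 0.94 to 0.99 for the rest) and was highest in CKD mouse 9176 at 15370 CPM rather than in 9179. These values chose the order and are a description.

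The share of counts from the 13 mitochondrially encoded protein genes, which the score does not use, ran from 1.44% in mouse 9171 to 19.5% in mouse 9179. It followed the score closely (Pearson r = 0.85, Spearman rho = 0.93, both permutation p = 2e-05, the smallest the 100000 resamples can give, adjusted p = 1e-04 over 5 library measures). Without mice 9171 and 9183, the farthest from the median score, r was 0.91. Within control mice r was 0.97 (exact permutation p = 0.0222, adjusted p = 0.0556) and within CKD mice 0.88 (exact permutation p = 0.0187, adjusted p = 0.0933). The share taken by the 20 most abundant other genes moved the opposite way, from 8.60% to 15.2% (r = -0.87, rho = -0.75, permutation p of r = 0.0011, adjusted p = 0.00275). Without the same 2 mice that r was -0.54 and did not pass the test (permutation p = 0.0784). The number of genes with a count fell with the score (r = -0.54, rho = -0.61, permutation p of r = 0.0258, adjusted p = 0.0429). Its r was -0.79 without the 2 farthest mice (adjusted p = 0.0173), but -0.16 without mice 9172 and 9179 and 0.44 within control mice (exact permutation p = 0.303). Total counts did not pass the test over all libraries (r = -0.35, permutation p = 0.244), but in control mice they fell with every step of the score (rho = -1.0, exact permutation p = 0.00278, adjusted p = 0.0139). The part of depth in the slopes was not tested. The share of haemoglobin genes, a trace of blood, did not pass the test (r = -0.13, permutation p = 0.606).

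Across the 14347 genes, 2448 rose with the score (17.1%) and 1413 fell (9.85%) in edgeR's quasi-likelihood test at an adjusted p under 0.05. A slope is the log2 change of a gene per log2 unit of the score, so that 1 means a change in proportion to the mean of the score genes. The median slope of all genes was 0.01. Of the rising genes, 209 had a slope above 1, and for 63 genes the lower bound of the 95% interval was itself above 1. Falling genes were shallower: 365 had a slope under -0.5 and 12 under -1. For 3762 genes (26.2%) the 95% interval of the slope lay within -0.25 and 0.25. Their slopes at fixed diet were thus shallow, which does not exclude a change over the whole order. Of them 3719 were not called, and 67 had a called difference of slope between the diets.

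The number of falling genes moved more than the number of rising genes when libraries were left out. Without CKD mice 9172 and 9179, 1748 genes rose and 773 fell, of which 1699 and 721 were also called with all 13 libraries. Leaving out single mice gave 1943 to 2609 rising genes. Falling genes numbered 736 without CKD mouse 9175, 759 without CKD mouse 9172, 920 without control mouse 9183 and 931 without CKD mouse 9174, and 1978 without control mouse 9171. With total counts in place of scaling factors, 1360 genes rose and 363 fell, so that 78.9% of the calls were rises against 63.4% with scaling factors. With mouse as a block, where the slope is that of infarct minus remote tissue in the same heart, 1330 rose and 177 fell. Without the diet term, 4000 rose and 3544 fell. The share of falling genes depended most on these choices.

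The genes that tracked the score most tightly were led by subunits of the ATP-sensitive potassium channel, which couples the energy state of the cell to its membrane potential. Kcnj11, the pore, was at 5.62, 50.0 and 72.3 CPM (lowest, median, highest) in control and at 62.9, 114 and 206 CPM in CKD libraries. Control and CKD overlapped between 62.9 and 72.3 CPM, where their scores overlap too. Its slope was 1.18 ± 0.06 (SE, n = 13, adjusted p = 2.25e-07). Abcc8, a regulatory subunit of this channel type, whose gene lies next to Kcnj11 with no other gene between, was at 2.32, 17.1 and 23.3 CPM in control and at 16.1, 25.3 and 53.5 CPM in CKD libraries. Its slope was 1.07 ± 0.05 (adjusted p = 1.36e-07), the smallest p of all genes tested. Next in order of p came Me3, a mitochondrial malic enzyme, Lrrc39, a protein of the sarcomere's M-band, Chchd10, a mitochondrial intermembrane protein, and Rxrg, a nuclear receptor, with slopes from 0.93 to 1.20.

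Sarcomere genes outside the score followed it almost without exception. Of 16 tested genes of the sarcomere and Z-disc, 15 rose and none fell (median slope 0.89, against 0.01 over all genes). Myl2, the ventricular regulatory light chain, ran from 209 to 3495 CPM in control and from 2594 to 20514 CPM in CKD libraries, and had a slope of 1.44 ± 0.12 (adjusted p = 3.36e-06). Myl3, the ventricular essential light chain, was steeper still at 1.56 ± 0.13. Myoz2, a Z-disc protein, had a slope of 1.06 ± 0.08. The list had 16 rising genes without mice 9172 and 9179 and 14 without mouse 9171.

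Genes of excitation and calcium handling rose as well. All 10 tested cardiac ion channel and gap junction genes rose (median slope 0.66). Without mice 9172 and 9179 this was 9, and without mouse 9171 it was 7. The steepest named channel gene was Kcnip2, a subunit that shapes the early outward potassium current, with a slope of 1.58 ± 0.21, and Kcnh2, a repolarising potassium channel, had a slope of 0.68 ± 0.08. Of 9 tested calcium handling genes, 7 rose and none fell (median slope 0.55). Risers numbered 6 without mice 9172 and 9179, and without mouse 9171 there were 7 risers and 1 falling gene. Hrc, a calcium-binding protein of the sarcoplasmic reticulum, ran from 25.2 to 2039 CPM with a slope of 1.43 ± 0.16. Jph2, which holds the reticulum to the cell membrane, was shallower at 0.56 ± 0.08.

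Genes of energy metabolism rose in large part. All 15 tested nuclear genes of oxidative phosphorylation, all 13 mitochondrially encoded protein genes and all 15 tested genes of fatty acid uptake and oxidation rose, with median slopes of 0.73, 0.87 and 0.76. Without mouse 9171 the mitochondrially encoded risers numbered 12. mt-Co1, a catalytic subunit of complex IV encoded in mitochondria, was at 4749, 20219 and 25180 CPM in control and at 28714, 37958 and 83394 CPM in CKD libraries. Its slope was 0.84 ± 0.10 (adjusted p = 9.82e-05). Cox6a2 and Cox7a1, the muscle forms of complex IV subunits, had slopes of 1.45 and 1.44. Fabp3, which carries fatty acids inside heart muscle cells, ran from 119 to 6013 CPM with a slope of 1.29 ± 0.10. Of 16 glycolytic genes 11 rose (median slope 0.42), led by muscle forms: Slc2a4, the insulin-responsive glucose transporter, at 1.09 ± 0.07, and Eno3, muscle enolase, at 1.12 ± 0.08. Glycolytic risers numbered 9 without mice 9172 and 9179 and 8 without mouse 9171.

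Creatine genes rose in part. Ckmt2, the mitochondrial creatine kinase of muscle, rose with a slope of 1.32 ± 0.09, while Gatm, which makes the precursor of creatine, fell with a slope of -0.53 ± 0.18 (adjusted p = 0.0468). The Gatm call was lost when any 1 of 10 mice was left out (adjusted p 0.0507 to 0.0924), and held without 9170, 9171 or 9177. In all, 3 of 6 rose and 1 fell, against 17.1% and 9.85% of all genes. A single falling gene in so short a list is near that share. Among 11 cardiac transcription factors and coactivators 7 rose (median slope 0.34), against 17.1% of all genes. Ppargc1a, the coactivator of mitochondrial genes, was steepest of those named at 1.32 ± 0.13, and Nkx2-5, a core cardiac factor, had a slope of 0.55 ± 0.11.

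Among the steepest genes were several entries at myosin loci. Myh7b, a myosin gene whose intron holds miR-499, was at 0.729 CPM in mouse 9171 and 282 CPM in mouse 9179, with a slope of 2.11 ± 0.25 (adjusted p = 5.62e-05). Mir208b, the hairpin entry within Myh7, had a slope of 2.61 ± 0.35, and Mhrt, a long non-coding RNA overlapping Myh7, one of 2.16 ± 0.27. Mir208b had no count in mouse 9171 and 69.9 CPM in mouse 9179. Mir208a, within Myh6, named after its values were seen, had a slope of 1.86 ± 0.37. The annotation does not let reads of these entries be told apart from reads of the overlapping host genes, and the library protocol does not say whether strand was kept. Counts of a hairpin entry are not a measure of the mature microRNA. The mature sequences are shown because these steep entries carry related microRNAs. Capitals mark the seed (bases 2 to 8), which miR-208a-3p (chr14:54949072-54949093, minus strand) and miR-208b-3p (chr14:54975710-54975731, minus strand) have in common. miR-499-5p lies at chr2:155622893-155622913, plus strand. Sequences and positions are from RefSeq, build GRCm38.p6.
mmu-miR-208a-3p: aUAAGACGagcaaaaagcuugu
mmu-miR-208b-3p: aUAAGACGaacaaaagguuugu
mmu-miR-499-5p: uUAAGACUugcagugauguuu

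Of 11 tested stress genes of heart muscle 2 rose, Hspb7 and Xirp1, and none fell (median slope 0.39), a share near the 17.1% of all genes that rose. Leaving out mice 9172 and 9179 gave 6 rising genes. Without mouse 9171 1 did, Xirp1 being lost (adjusted p = 0.0963). Nppa, the atrial natriuretic peptide gene reactivated in strained ventricle, was at 432, 2011 and 2617 CPM in control and at 330, 1254 and 4838 CPM in CKD libraries. It was highest in CKD mouse 9178 and lowest in CKD mouse 9175, which lie at 11.30 and 10.86 in the score, and its slope was 0.07 ± 0.52 (adjusted p = 0.928). Nppb, the related brain natriuretic peptide gene, had a slope of 0.53 ± 0.32 that did not pass the test (adjusted p = 0.235). Without mouse 9179 it did (adjusted p = 0.0461), as it did without both 9172 and 9179 (adjusted p = 0.044). Myh7, the slow myosin heavy chain of strained ventricle and no member of that list, rose with a slope of 0.88 ± 0.22 (adjusted p = 0.0113). Without control mouse 9171 it did not pass the test (adjusted p = 0.0894). Its CPM ran from 190 to 1437 in control and from 503 to 2547 in CKD libraries. The interval of the Nppa slope, -1.04 to 1.19, does not exclude a slope of 1.

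Myl7, the atrial light chain, had the steepest slope of the genes named, 3.78 ± 1.13 (adjusted p = 0.0261), and it rested on a single library. It was at 236 CPM in CKD mouse 9179 and at 0.173 to 3.09 CPM in the other 12. Without mice 9172 and 9179 its slope was 0.36 and did not pass the test (adjusted p = 0.596). The call was also lost without CKD mouse 9174 (adjusted p = 0.0646) or 9175 (adjusted p = 0.0718). Of 5 tested atrial markers Myl7 alone was called.

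**Figure D2:**
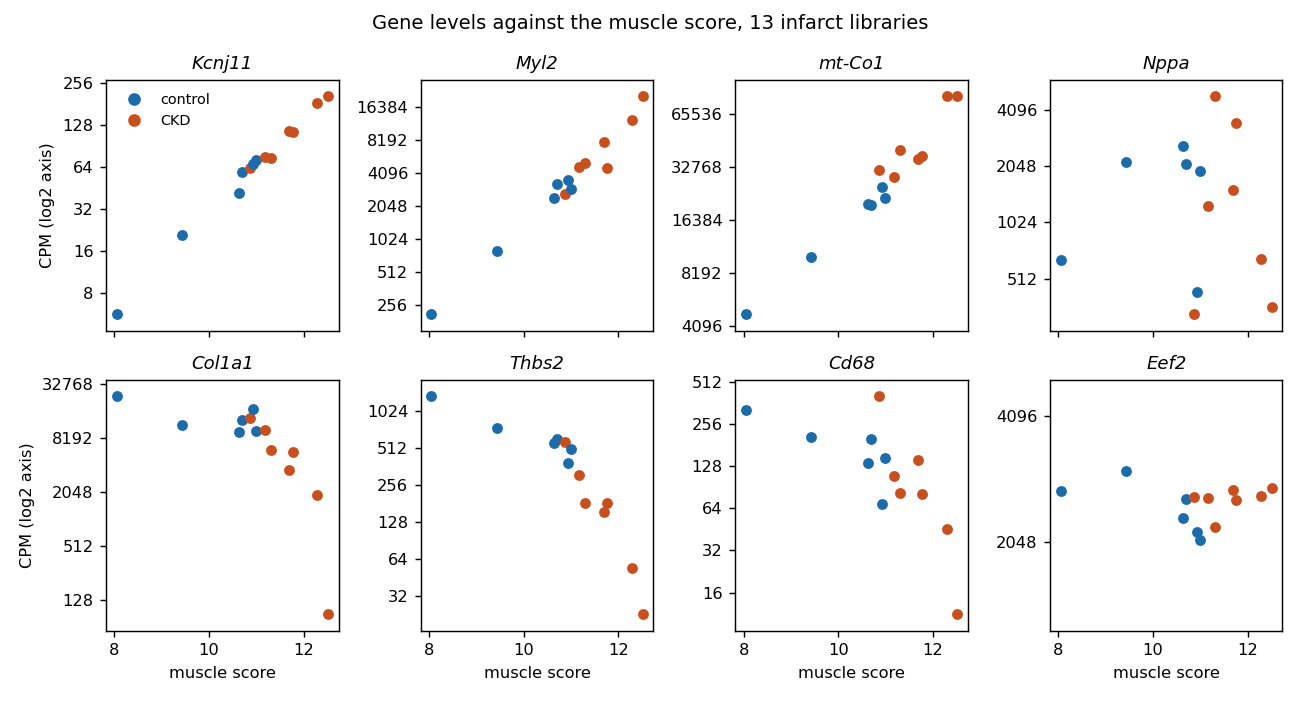
CPM on a log2 axis (y) against the muscle score (x) for 8 genes in the 13 infarct libraries, control in blue and CKD in orange. Kcnj11, Myl2 and mt-Co1 climb along the order, Col1a1, Thbs2 and Cd68 are lowest in CKD mouse 9179 (87.9, 22.9 and 11.2 CPM), Nppa scatters between 330 and 4838 CPM, and Eef2 stays between 2067 and 3032 CPM.

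The region before the start of rising genes held more matches to the MEF2 motif, bound by a family of muscle transcription factors, than that of the other classes. Among the 250 bases upstream of each start, 2.21% of 1085 promoters of genes that rose with a slope above 0.5 held a match on either strand, against 0.344% of 1453 promoters of falling genes and 0.232% of 3887 promoters of genes with a narrow interval around 0. Over all 32851 promoters of the table the share was 0.508%. The motif for SRF, the serum response factor, was at 2.12%, 0.964%, 0.952% and 1.47% in the same order. The GATA motif AGATAA was at 8.48%, 5.51%, 5.33% and 9.99%, and the TATA box TATAAA was at 9.77%, 5.78%, 5.25% and 12.4%. MEF2 matches lay in 24 promoters of rising, 5 of falling and 9 of narrow-interval genes. Falling genes were taken at any slope, rising genes only above 0.5. These are shares of letters in a window, with no test. Promoters of 834 of 1107 rising, 1119 of 1413 falling and 3016 of 3717 flat genes were found by symbol, and a gene can have several. Among rising genes whose promoters were looked at singly, Myl2, Fabp3 and Rpl3l held no MEF2 match. Of the genes named above, Myoz2 and Lrrc39 are printed because they rose and hold a MEF2 match (capitals), and Thbs2, a matrix gene that fell, because it holds none, its capitals marking a TATA box match on the opposite strand. They lie at chr3:123034988-123035237 (minus strand), chr3:116562733-116562982 (plus strand) and chr17:14694263-14694512 (minus strand) in RefSeq's GRCm38.p6, and end at the base before the start.
Myoz2: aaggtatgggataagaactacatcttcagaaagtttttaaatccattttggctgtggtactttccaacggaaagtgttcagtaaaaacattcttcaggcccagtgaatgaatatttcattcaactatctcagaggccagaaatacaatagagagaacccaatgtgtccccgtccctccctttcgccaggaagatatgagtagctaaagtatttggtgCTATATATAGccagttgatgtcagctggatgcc
Lrrc39: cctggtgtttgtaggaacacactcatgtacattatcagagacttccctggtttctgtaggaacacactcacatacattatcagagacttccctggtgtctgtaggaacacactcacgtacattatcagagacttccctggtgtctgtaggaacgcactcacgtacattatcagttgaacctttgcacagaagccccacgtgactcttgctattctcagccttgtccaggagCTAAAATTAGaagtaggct
Thbs2: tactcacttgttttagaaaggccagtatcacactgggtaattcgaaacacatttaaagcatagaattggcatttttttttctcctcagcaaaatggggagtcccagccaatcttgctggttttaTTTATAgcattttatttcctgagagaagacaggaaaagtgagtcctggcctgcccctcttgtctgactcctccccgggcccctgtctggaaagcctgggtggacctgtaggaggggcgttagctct

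Vessel genes rose in part. Of 14 genes of capillary and arterial endothelium, which lines the vessels between muscle cells, 7 rose and none fell (median slope 0.26), against 17.1% and 9.85% of all genes. The intervals of 3 lay within -0.25 and 0.25, a share near the 26.2% of all genes. Without mice 9172 and 9179 4 rose, and without mouse 9171 5 did. Kdr, the main VEGF receptor, had a slope of 0.46 ± 0.09 and Fabp4, a fatty acid carrier of capillaries, one of 0.62 ± 0.12. Vegfa, the growth factor for these vessels, ran from 41.9 to 345 CPM with a slope of 0.75 ± 0.10 (adjusted p = 0.000192). Lpl, the lipase that frees fatty acids at the capillary wall, ran from 213 CPM in mouse 9171 to 9596 CPM in mouse 9179 with a slope of 1.05 ± 0.23. Of 6 lymphatic markers only Prox1 rose, at 0.72 ± 0.08, a share near the 17.1% of all genes that rose. Of 12 smooth muscle and pericyte genes 3 rose (1 without mice 9172 and 9179) and 2 fell (1 without mouse 9171), against 17.1% and 9.85% of all genes. Among them were Abcc9, a potassium channel subunit used as a pericyte marker, at 0.56 ± 0.13, and Pdgfrb, a pericyte and fibroblast receptor, at -0.46 ± 0.08. Vegfa and Lpl are not among the 14 endothelial genes. Which cells the Vegfa, Lpl, Abcc9 and Prox1 reads came from was not tested, and a bulk library does not show it.

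Scar genes lay on the falling side, but few passed the test. Over all genes 9.85% fell. None of 14 collagen genes did, with a median slope of -0.50. Leaving out mice 9172 and 9179 gave 1 falling collagen gene, and leaving out mouse 9171 gave 2. Col1a1 was at 9583, 12219 and 23922 CPM in control and at 87.9, 5745 and 13545 CPM in CKD libraries. The levels of CKD mice 9175 and 9174 lay within the control range, and the lowest levels were those of mice 9172 and 9179. Its slope over all libraries was -0.78 ± 0.41 (adjusted p = 0.166). Of 14 matricellular and elastic proteins 3 fell (median slope -0.77), against 11 without control mouse 9171. Thbs2, an anti-angiogenic matrix protein, was at 391, 587 and 1358 CPM in control and at 22.9, 183 and 573 CPM in CKD libraries, with a slope of -0.98 ± 0.26 (adjusted p = 0.0163). Eln, elastin, had a slope of -1.11 ± 0.34 and was highest in control mouse 9183 at 7133 CPM. Its adjusted p of 0.0299 rose to 0.0801 without mice 9172 and 9179, and the call was also lost without 9172, 9183 or 9184 alone (adjusted p 0.0501 to 0.0617).

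Of 12 markers of activated fibroblasts 4 fell (median slope -0.42), and 1 did without mice 9172 and 9179. Among falling genes averaging 10 CPM or more the steepest was Comp, a cartilage matrix protein also made in scar, at 64.9 to 628 CPM in control and 9.6 to 175 CPM in CKD libraries, with a slope of -1.20 ± 0.38 (adjusted p = 0.0338). Without mice 9172 and 9179 it was -0.78 and did not pass the test (adjusted p = 0.103). The same held without 9170, 9172, 9175, 9179, 9183 or 9184 alone (adjusted p 0.0562 to 0.0677). Of 13 collagen processing enzymes 3 fell (5 without mice 9172 and 9179, 7 without mouse 9171), among them Loxl3, a collagen cross-linking oxidase, at -0.79 ± 0.27. Its call was lost without any 1 of 8 mice, 9170, 9172, 9174, 9175, 9177, 9182, 9183 or 9184 (adjusted p 0.0552 to 0.0819). Of 13 genes of the TGF-beta and BMP pathway, which drives scar formation, 5 fell (3 without mice 9172 and 9179), with Tgfb1 at -0.35 ± 0.07. Of 11 metalloproteases and inhibitors 3 fell, with Timp2, an inhibitor, at -0.49 ± 0.13. Of 12 resting fibroblast markers 1 fell, Tcf21 at -0.57 ± 0.16, a share near the 9.85% of all genes that fell. Their median slope was -0.14. Tcf21 did not pass the test without mice 9172 and 9179 (adjusted p = 0.0635).

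Of 12 macrophage genes, markers of the cells that clear dead muscle, 6 fell (median slope -0.52). Without mice 9172 and 9179 4 fell, and without mouse 9171 10 did. Csf1r, the growth factor receptor of macrophages, was at 156, 207 and 378 CPM in control and at 60.5, 173 and 403 CPM in CKD libraries, with a slope of -0.61 ± 0.16 (adjusted p = 0.0136). Cd68, a lysosomal protein of macrophages, had a slope of -0.93 ± 0.30 (adjusted p = 0.0372), and its highest level, 403 CPM, was in CKD mouse 9175. The Cd68 call was lost without mice 9172 and 9179 (adjusted p = 0.0806) and without 9172, 9174, 9175, 9180 or 9184 alone (adjusted p 0.0514 to 0.0804). Stab1, a scavenger receptor, was among the 10 falling genes of smallest p, at -0.38 ± 0.07 (adjusted p = 0.00124). Markers of resident macrophages, a population of the uninjured heart, lay partly on the other side: 3 of 6 rose, Timd4, Cbr2 and Cd163, with slopes of 0.90, 0.50 and 0.78, and 1 fell, Gas6 at -0.28. None of these 3 was called without mice 9172 and 9179 (adjusted p 0.0713 to 0.0765). Timd4 was also lost without 9179 alone, and Cd163 without 9175 or 9184. The difference between the lists was not tested.

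Spp1, osteopontin, a secreted protein of scar macrophages, named after its values were seen, stood apart in CKD mouse 9175 at 5314 CPM. It was at 201 to 758 CPM in control mice, and at 0.386 to 209 CPM in the other CKD mice. Its slope of -2.32 ± 1.11 did not pass the test (adjusted p = 0.13). Without control mouse 9171 it did, at -4.44 (adjusted p = 0.0202).

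Of 7 genes of MHC class II presentation 2 fell (median slope -0.52), of 10 T and NK cell genes 2 fell (median slope -0.51), and of 5 B cell genes 1 fell (median slope -0.33). Over all genes 9.85% fell, and these small counts were not tested against that share. Without mouse 9171 7 MHC class II and 5 T and NK cell genes fell, and without mice 9172 and 9179 0 and 1 did. Cell cycle genes shared this side in their values only: none of 12 was called (median slope -0.40). The summed level of the cell cycle list was 184 to 298 CPM in control and 60.4 to 324 CPM in CKD libraries.

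The falling genes with the smallest p had shallow slopes. Tmem9, a lysosomal membrane protein, had a slope of -0.32 ± 0.05 and Sept8, a cytoskeletal septin, one of -0.33 ± 0.05, both at an adjusted p of 0.000632. Fzd5, a Wnt receptor, fell more steeply at -0.65 ± 0.11. Sept8 was at 122 to 223 CPM in control and at 68.8 to 122 CPM in CKD libraries, with little scatter along the order.

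**Figure D3:**
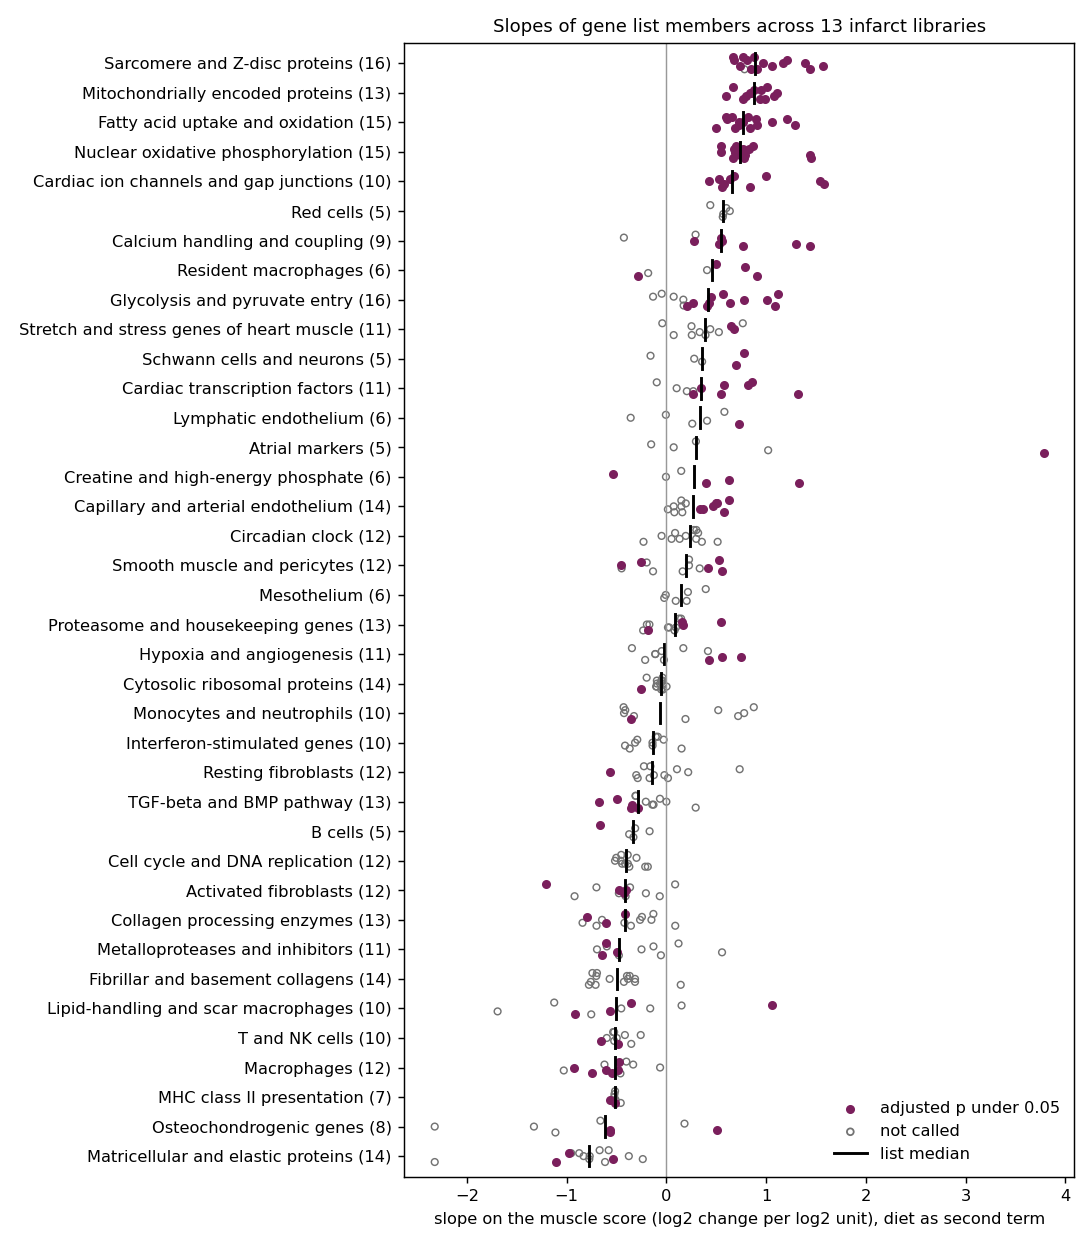
Slope on the muscle score (x, log2 change per log2 unit) of every tested member of 38 gene lists (y, number tested in brackets) in the 13 infarct libraries, filled where the adjusted p is under 0.05, with the list median as a bar. Muscle and mitochondrial lists lie to the right with most members filled, and collagen and matricellular lists to the left with most members open.

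Many abundant genes had slopes within narrow limits at fixed diet. The 3 with the highest mean among genes whose interval lay within -0.25 and 0.25 were Eef2, a translation elongation factor, Tpt1, the translationally controlled tumour protein, and Ubb, a ubiquitin gene. Eef2 was at 2067, 2467 and 3032 CPM in control and at 2219, 2616 and 2749 CPM in CKD libraries, with a slope of -0.08 and a 95% interval from -0.22 to 0.06. The intervals of 12 of 14 cytosolic ribosomal protein genes lay within the same limits, and 1 gene, Rpl3, fell at -0.26 ± 0.08 (adjusted p = 0.0327), which did not pass the test without mice 9172 and 9179 (adjusted p = 0.0883) or without 9170, 9172, 9174, 9175, 9179 or 9183 alone (adjusted p 0.0521 to 0.0733). Without mouse 9171 3 ribosomal genes fell. Its muscle counterpart Rpl3l, which replaces it in the ribosomes of striated muscle, rose between 2.53 and 602 CPM with a slope of 1.79 ± 0.19 (adjusted p = 2.7e-05). Hspg2, the basement membrane proteoglycan perlecan, was the matrix gene among the 10 most abundant flat genes, at 792 to 1272 CPM with a slope of -0.07 ± 0.06. Of 13 proteasome and housekeeping genes 3 rose, 1 fell and 4 had intervals within the limits. Over all genes 17.1% rose, 9.85% fell and 26.2% had such intervals. Without mice 9172 and 9179 1 rose and 0 fell, and without mouse 9171 2 fell. The median of that list was 0.08, and -0.02 with total counts in place of scaling factors. No other list median changed sign under 4 other scalings, which moved the median of all genes by less than 0.1.

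At equal score no gene passed the test between the diets. Of 14347 genes 0 were called (0%, edgeR's quasi-likelihood test), the smallest adjusted p was 0.957, and 585 genes had an unadjusted p under 0.05. DESeq2 and limma-voom called 0 as well, with smallest adjusted p of 0.0676 and 0.363. The smallest p belonged to Gpc2, a proteoglycan, at 0.704 to 1.19 CPM in control and 0.0965 to 0.369 CPM in CKD libraries. Adamts6, a metalloprotease of the matrix, came next, at 9.25 to 14.4 CPM in control and 3.62 to 7.33 CPM in CKD libraries, with a difference of -0.77 ± 0.17 on the log2 scale at equal score (unadjusted p = 0.000459). These ranges did not overlap, but they are levels not held at equal score, of genes picked by smallest p. How many of all genes have separate ranges was not counted. Since the diets share scores only between 10.86 and 11.00, this test compares extrapolated lines over most of the range, and a diet effect and a score effect cannot be told apart there.

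The slopes themselves differed between the diets for many genes. In CKD libraries 1555 genes had a more negative slope (10.8%) and 748 a more positive slope (5.21%) than in control libraries. The smallest p belonged to Emp3, a membrane protein, with slopes of -0.10 in control and -1.31 in CKD libraries (difference -1.20 ± 0.11, adjusted p = 0.00191). Its CPM was 89.1 to 124 in control and 27.8 to 138 in CKD libraries. In the other direction, Syde2, a GTPase-activating protein, had slopes of -0.09 and 1.24 (difference 1.33 ± 0.15, adjusted p = 0.00504).

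Matrix, immune and proliferation lists had steeper median slopes in CKD than in control libraries. Collagen genes had a median slope of -0.17 in control and -1.89 in CKD libraries, and 5 of 14 differed. For Col1a1 the slopes were -0.28 and -2.79 (difference -2.51 ± 0.72, adjusted p = 0.0359). MHC class II genes had medians of -0.21 and -1.49, and all 7 differed. Cell cycle genes had medians of -0.09 and -1.68, and 8 of 12 differed. Macrophage genes had medians of -0.32 and -1.49, and 5 of 12 differed. Sarcomere genes had medians of 0.95 in control and 0.80 in CKD libraries, and none of 16 differed, nor did any of the 13 mitochondrially encoded or the 15 fatty acid genes. Of 15 nuclear oxidative phosphorylation genes 3 had a more positive slope in CKD, as did 2 of 10 ion channel genes. Among all genes tested 10.8% had a more negative and 5.21% a more positive slope in CKD. The counts of these short lists were not tested against those shares.

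These differences rested on the ends of the order. Without control mouse 9171, the lowest, 1 gene had a more negative and none a more positive slope in CKD, with 3237 genes at an unadjusted p under 0.05 against 4650 with all libraries. Without CKD mouse 9179, the highest, 95 and 5 did (2530 at an unadjusted p under 0.05), and without both 9172 and 9179 none in either direction (smallest adjusted p = 0.241, 1243 genes at an unadjusted p under 0.05). Of the genes with a more positive slope, 449 were counted without control mouse 9170, 461 without CKD mouse 9172, 473 without control mouse 9182, 484 without CKD mouse 9174 and 1178 without CKD mouse 9176. Without CKD mouse 9175, 962 genes had a more negative slope. Control libraries cover the lower and CKD libraries the upper part of the range, so diet and position along the order cannot be told apart. Of the rising genes, 2446 of 2448 had a positive slope in both diets, and all 1413 falling genes had a negative slope in both. These genes were chosen by the slope over the same libraries, which combines both diets. This match was therefore largely set by the choice and is no separate support.

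**Figure D4:**
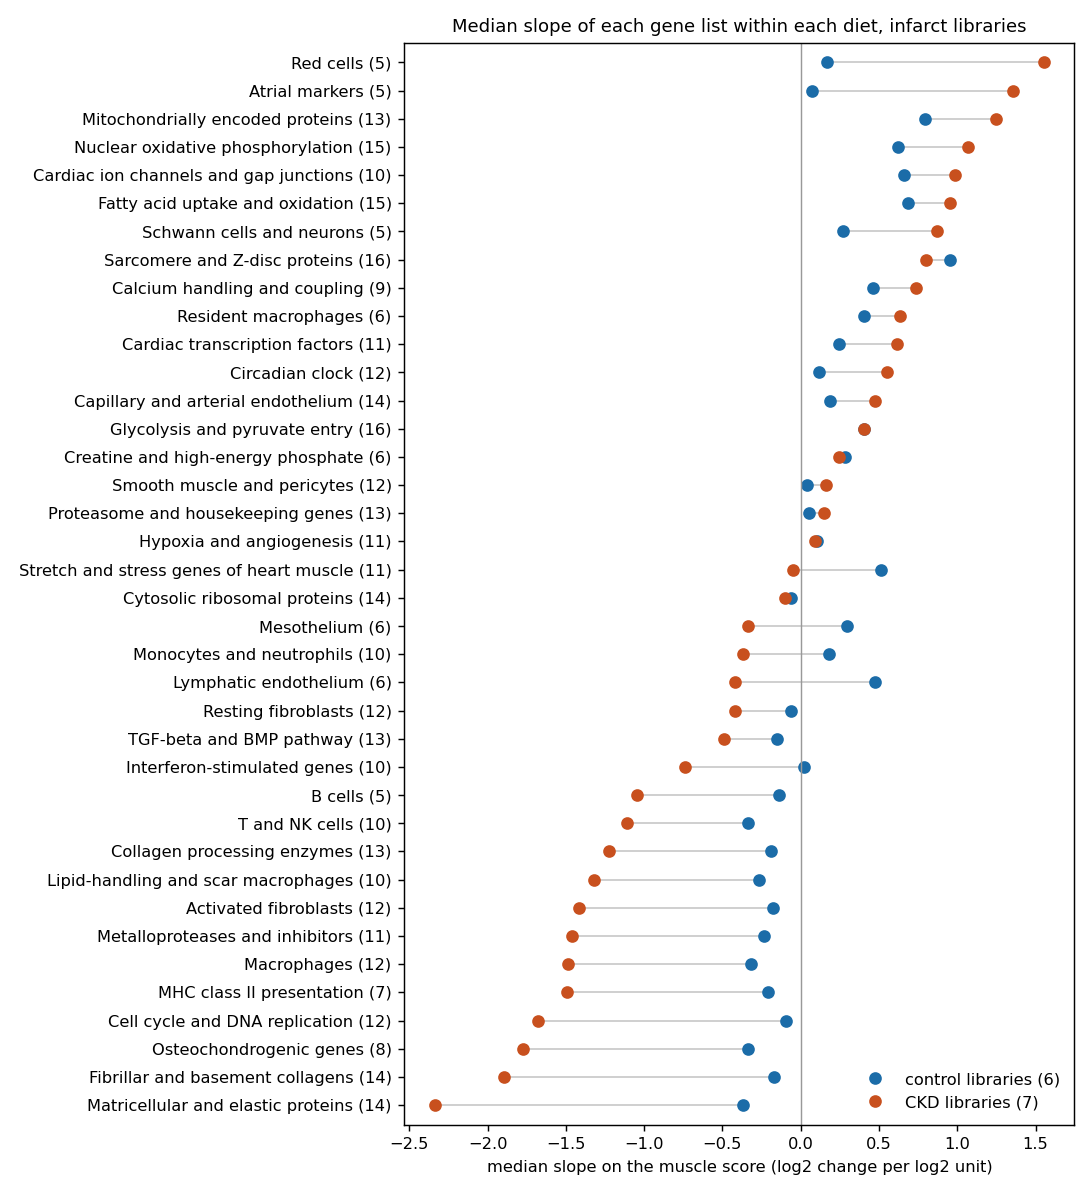
Median slope on the muscle score (x, log2 change per log2 unit) of 38 gene lists (y, genes tested in brackets) fitted within the 6 control (blue) and 7 CKD (orange) infarct libraries. Collagens stand at -0.17 and -1.89 and cell cycle genes at -0.09 and -1.68, while sarcomere genes stand at 0.95 and 0.80.

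Remote libraries, ordered by their own score, gave a set that overlapped in part. Of 13891 genes 1889 rose (13.6%) and 2452 fell (17.7%). Of the genes that rose with the score in infarcts, 1227 also rose in remote tissue, which is 50.1% of the 2448 and 66.4% of the 1847 remote risers tested in both. Of those that fell, 787 also fell, which is 55.7% of the 1413 and 32.1% of the 2451. These remote counts rested on control mouse 9180, whose remote library had the lowest score: without it 33 genes rose (0.237%) and 265 fell (1.91%), of which 25 and 83 were shared with the infarct. Kcnj11 had a slope of 1.67 in remote tissue (adjusted p = 4.58e-05) and Col1a1 one of -3.84 (adjusted p = 2.35e-05). Without mouse 9180 they were 1.83 (adjusted p = 0.0534, no longer called) and -4.26 (adjusted p = 0.0488). For mouse 9179 the title of the remote library says CKD and its treatment label says control. Read as control, the counts were 2070 and 2646.

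No gene of remote tissue was called against the muscle score of the infarct in the same heart. Over 13 mice, 0 of 13862 genes passed the test against the infarct score (0%, edgeR's quasi-likelihood test, smallest adjusted p = 0.841), and 789 had an unadjusted p under 0.05. DESeq2 called 0 as well (smallest adjusted p = 0.0703). The smallest p belonged to Bdnf, a neurotrophin.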

How the data were processed

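Bulk RNA was sequenced from 27 tissue pieces of mouse heart, of which the 13 infarct libraries are described and the 14 remote libraries serve as reference. The deposited table holds whole-number counts per gene and library. Reads were quantified with kallisto 0.48.0 against GRCm39, per the submitters' processing notes. How transcripts were summed to genes, the annotation and any filter are not given in the sources used here.

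The table lists 27304 genes, 21658 with at least 1 count. Genes were filtered with filterByExpr by diet, scaled with TMM factors and fitted with edgeR 4.0.16 (quasi-likelihood F test, R 4.3.3) with diet and score as terms, and a further fit gave each diet its own slope. P-values were adjusted by Benjamini-Hochberg over all genes tested (threshold 0.05). CPM and log2 CPM (prior count 2) were computed from the counts, and score genes were not tested. Correlations used permutation tests in scipy 1.17.1 (Python 3.11.15). DESeq2 1.42.0 and limma 3.58.1 were alternatives. The fit was tested on simulated data for 14347 genes. It recovered 7.46%, 64.2% and 97.0% of the 67, 67 and 66 genes given slopes of 0.25, 0.5 and 1, and called 6 unchanged genes. All other genes were given no slope, and no gene was given a diet effect. Far fewer genes changed than were called in the data, which makes the adjusted p stricter. The recovered shares therefore do not carry over to the data.

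Infarct and remote libraries of 1 mouse are paired by animal. Deviations of the 13 pairs correlated at -0.10 to 0.40 (median 0.17, against -0.02 between mice). No 2 libraries of a group agreed within sampling noise (lowest chi-square per degree of freedom 18.7 over 36 pairs).

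Genes named are, of called genes averaging 1 CPM or more, the 10 of smallest p in each direction, of those averaging 10 CPM or more the 10 steepest, the 10 most abundant with an interval within 0.25 of 0, and up to 4 called members of each of 39 gene lists by p (2 where none was called). For other comparisons they are the 5 called genes of smallest p in each direction, or 3 where none was called. The score genes, Apoe, Nppa, Nppb, Myh7, Col1a1 and Postn were always included, and the text gives a selection. Members, lists and the rule were chosen with earlier results of these data known. Of 413 list genes 412 were found. Alternatives changed the scaling, filter, test, score and libraries.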

Additional observations from a re-analysis of the deposited data

Results flagged for a closer look

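Among 90 groups of libraries and values examined, 8 had a library far from the others of its diet. Chance flags about 1 in 20 groups. In control mouse 9171, the lowest of the order, Tnnt2 was at 10.45 log2 CPM (nearest control 12.03), Actc1 at 10.73 (12.10) and Mybpc3 at 9.41 (10.82). These are score genes, whose values set that mouse's place. In CKD mouse 9179, the highest of the order, the atrial gene Myl7 was at 7.88 log2 CPM (nearest CKD library 1.67), while the scar genes Col1a1 and Postn were at 6.46 (10.88) and 4.39 (8.21). Eef2 was lowest among CKD libraries in mouse 9178, at 11.12 log2 CPM (11.33). The number of genes with a count was highest among controls in mouse 9184, at 18076 (17801).

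Slopes differed between the diets by edgeR's test of the difference for 1555 genes with a more negative and 748 with a more positive slope in CKD. Among the genes whose values are given by library, the difference CKD minus control was -1.97 for Thbs2, -1.80 for Cd68, -2.51 for Col1a1, -5.12 for Spp1 and 5.20 for Myl7. Spp1 and Cd68 were highest in CKD mouse 9175, at 5314 and 403 CPM. Without CKD mice 9172 and 9179 no gene was called in either direction.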

How the results depend on the processing

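For slopes on the score, total counts only gave 1360 rising and 363 falling genes, omitting the diet term 4000 and 3544, and leaving out mice 9172 and 9179 gave 773 falling genes. Leave-one-out counts ran from 736 to 1978 falling genes. With mouse as a replicate block, which pairs infarct and remote tissue, 1330 rose and 177 fell; that fit tests the slope of infarct minus remote tissue, another quantity. For slopes that differed between diets, 408 were more positive in CKD without a filter, 1275 with DESeq2, and 0 in each direction without mice 9172 and 9179. Leave-one-out counts ran from 0 to 1178 more positive and from 1 to 2098 more negative. Remote leave-one-out counts ran from 33 to 2251 rising and from 265 to 2478 falling. The cause was not tested.

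Among library measures, r of the mitochondrial share was 0.97 in control and 0.88 in CKD mice, without passing the test there. For the 20 most abundant other genes r was -0.54 without the 2 mice farthest from the median score, -0.90 in control and -0.31 in CKD mice. For genes with a count r was 0.44 in control mice, -0.71 in CKD mice and -0.16 without 9172 and 9179, and for total counts -0.85 in control mice. For haemoglobin r was 0.041 without the 2 farthest mice, 0.0596 in control and 0.50 in CKD mice. Leaving out 9172 and 9179 in the slope differences, leaving out the farthest mice and splitting by diet were chosen after seeing the data.

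Of 3946 values of 152 named genes under alternatives, 3574 kept their direction and side of the threshold, 325 were no longer called, 47 were newly called and 0 changed direction among called values. With 10 residual degrees of freedom, slopes near 0.25 were seldom recovered in the simulation. Far fewer genes changed there than were called in the data, so the share missed in the data is not known. A gene not called may still follow the score.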

Other observations

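Of 10 genes of lipid-handling and scar macrophages 1 rose and 3 fell (median slope -0.51). The riser was Lpl, which is also counted among the rising fatty acid genes. Without CKD mice 9172 and 9179 1 fell, and without control mouse 9171 6 did. Of 10 monocyte and neutrophil genes 1 fell (median slope -0.07), and 0 did without mice 9172 and 9179. Over all genes 17.1% rose and 9.85% fell, and the counts of these short lists were not tested against those shares. Of 5 Schwann cell and neuron genes 2 rose (median slope 0.36), and 0 did without CKD mice 9172 and 9179. Of 8 osteochondrogenic genes 1 rose and 2 fell (median slope -0.62), among them Runx2, a master factor of bone cells, at -0.56. Without mouse 9171 0 rose and 5 fell, and the Runx2 call was lost without 9172, 9174, 9175 or 9180 alone (adjusted p 0.0525 to 0.0758 in edgeR's test). Of 11 hypoxia and angiogenesis genes 3 rose (median slope -0.03).

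None of 10 interferon-stimulated, 12 circadian clock, 6 mesothelial or 5 red cell genes was called by edgeR's quasi-likelihood test, with median slopes of -0.14, 0.23, 0.15 and 0.57. The adipocyte markers did not pass the filter on low counts and were not tested.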
